A study of Mus musculus with 8 samples.

Results

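Constant single-peak regions away from gene ends are places in the genome where every H3K27ac library had exactly 1 peak and no protein-coding gene begins or ends nearby. They were found by merging the peaks of the 4 libraries that overlapped by at least 1 base into 72585 union regions. A region was kept where it held exactly 1 peak of each library and its midpoint lay more than 2 kb from the start and end coordinates of every protein-coding gene (21900 genes, RefSeq, mm10). The members were thus selected on the measured presence and number of peaks, together with gene positions. That left 3678 regions, which are 5.07% of all union regions and 18.9% of the 19493 regions with a peak in all 4 libraries. They are called constant distal regions here. Constant means present in each library, so none of them could have been gained or lost outright, and distal means only far from a gene's outer coordinates. Most of the regions that also had 1 peak per library lay at gene ends: 5960 of 9638.

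The libraries were made from muscle stem cells (satellite cells) of skeletal muscle of C57BL/6 mice by ChIPmentation, in which antibody-bound chromatin is cut and tagged by a transposase. The activated cells (ASC) were taken 2.5 days after injury of the muscle with BaCl2, a salt that kills muscle fibres, and the freshly isolated cells (FISC) were taken from untreated muscle. Each condition had 2 H3K27ac libraries and 2 inputs, and the peak lists of the 4 H3K27ac libraries were analysed. The labels do not say whether replicates came from separate animals, so p-values measure only how far these samples spread, and that spread may be technical. The ASC lists held 50154 and 54700 peaks and the FISC lists 45014 and 43092, and the constant distal regions took between 6.72 and 8.54% of the peaks of a list. Peaks covered the gene ends of 7 of 8 satellite cell markers in both ASC libraries and of all 8 in both FISC libraries, 20.6 and 21.1 kb against 20.8 and 21.7 kb in sum. The marker without a peak in ASC was Calcr, the calcitonin receptor.

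H3K27ac is acetylation of lysine 27 of histone H3, laid down by the acetyltransferases p300 and CBP at active promoters and enhancers. Enhancers are stretches of DNA, often far from genes, at which transcription factors bind and raise the transcription of a gene, and many are used in some cell states and not in others. Many genes also have several start sites, and a start site in the middle of the annotated gene carries the mark as well. Satellite cells lie quiescent on the muscle fibre, express the paired-box factor Pax7, and after injury enter the cell cycle and supply new muscle nuclei.

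Part of the constant distal regions hold start sites inside genes, and the sequences of such sites are shown first because several of the strongest members hold one. RefSeq lists promoter windows of 250 bases before to 50 bases after a start (GRCm38.p6, 32851 windows of protein-coding and lncRNA genes). Capitals mark CCAAT (the NF-Y box), GGGCGG (the Sp1 box), CCGGAAG (an Ets box), TATAAA (the TATA box), TGANTCA (the AP-1 site) or TGACGTCA (the cAMP response element), read on either strand, so that ATTGG and CCGCCC are CCAAT and GGGCGG on the other strand. The 3 protein-coding starts belong to members among the 8 with the highest fold enrichment. Nfyc encodes a subunit of the CCAAT-binding factor NF-Y (chr4:120825692-120825991, minus strand), Psma3 a subunit of the proteasome (chr12:70974373-70974672, plus strand) and Hivep2 a zinc finger transcription factor (chr10:13966129-13966428, plus strand). B930059L03Rik is a lncRNA gene near Ppp2r5c, a regulatory subunit of protein phosphatase 2A (chr12:110591124-110591423, plus strand). Foxred2, an oxidoreductase of the endoplasmic reticulum, holds the member with a start whose peak was among the most narrowed in ASC (chr15:77956673-77956972, minus strand).
Nfyc: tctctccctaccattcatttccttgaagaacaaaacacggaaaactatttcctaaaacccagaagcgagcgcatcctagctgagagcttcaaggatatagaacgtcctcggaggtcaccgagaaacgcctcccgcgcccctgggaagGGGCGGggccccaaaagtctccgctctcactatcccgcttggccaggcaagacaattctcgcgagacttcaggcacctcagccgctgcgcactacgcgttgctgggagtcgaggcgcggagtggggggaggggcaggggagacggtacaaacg
Psma3: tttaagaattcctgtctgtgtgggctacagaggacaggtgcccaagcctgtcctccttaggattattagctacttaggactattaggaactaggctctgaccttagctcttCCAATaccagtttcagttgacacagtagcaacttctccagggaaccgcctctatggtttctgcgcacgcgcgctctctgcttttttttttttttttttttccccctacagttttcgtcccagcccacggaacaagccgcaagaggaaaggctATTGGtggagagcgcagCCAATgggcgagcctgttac
Hivep2: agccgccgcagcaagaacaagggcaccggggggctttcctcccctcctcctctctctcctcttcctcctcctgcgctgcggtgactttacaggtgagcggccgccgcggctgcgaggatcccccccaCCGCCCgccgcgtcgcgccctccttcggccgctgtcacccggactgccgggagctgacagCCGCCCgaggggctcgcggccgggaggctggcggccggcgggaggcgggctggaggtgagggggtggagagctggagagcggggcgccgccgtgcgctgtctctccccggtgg
B930059L03Rik: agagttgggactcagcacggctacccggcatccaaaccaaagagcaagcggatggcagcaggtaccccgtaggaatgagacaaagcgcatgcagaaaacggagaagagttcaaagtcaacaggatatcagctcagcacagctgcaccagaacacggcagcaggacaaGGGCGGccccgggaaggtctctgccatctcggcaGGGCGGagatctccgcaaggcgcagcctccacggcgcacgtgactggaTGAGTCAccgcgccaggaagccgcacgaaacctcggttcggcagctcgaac
Foxred2: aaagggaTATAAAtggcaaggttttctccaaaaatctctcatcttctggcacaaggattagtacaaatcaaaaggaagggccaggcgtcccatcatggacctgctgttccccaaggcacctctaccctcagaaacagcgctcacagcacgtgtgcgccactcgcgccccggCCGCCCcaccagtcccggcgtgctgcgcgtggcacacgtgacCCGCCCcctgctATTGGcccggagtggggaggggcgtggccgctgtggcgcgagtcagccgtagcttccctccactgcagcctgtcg
The Psma3 window holds 3 CCAAT boxes and no GGGCGG, and the Hivep2 window holds 2 GGGCGG boxes in 75.3% G and C. In the Nfyc window 1 GGGCGG box was found. The B930059L03Rik window holds 2 GGGCGG boxes and 1 AP-1 letter match close to the start. The Foxred2 window has a TATAAA match far upstream of its start, 2 GGGCGG boxes and 1 CCAAT box.

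A second kind of transcript in these regions is the microRNA, a short RNA that pairs with messenger RNAs through its seed and lowers their output. Of 1005 hairpins in the RefSeq table, 14 lay in 13 constant distal regions. Their 25 mature sequences had 25 different seeds, so no group shares a seed. The mature strands of the better known hairpins follow, 5′ to 3′, with the seed (bases 2 to 8) in capitals.
let-7i-5p: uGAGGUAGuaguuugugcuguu
let-7i-3p: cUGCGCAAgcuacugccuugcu
miR-193a-3p: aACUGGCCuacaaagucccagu
miR-26a-5p: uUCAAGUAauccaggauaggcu
miR-199a-5p: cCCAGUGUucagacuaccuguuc
miR-199a-3p: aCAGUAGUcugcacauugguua
miR-203-3p: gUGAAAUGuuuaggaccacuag
miR-760-3p: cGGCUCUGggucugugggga
The let-7 family restrains cell growth and is recognised by the seed printed for let-7i-5p.

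Of the 3678 constant distal regions, 2131 (57.9%, 95% Wilson interval 56.3 to 59.5%) had their midpoint inside a protein-coding gene and the other 1547 lay between genes. Intervals of shares cover counting error only. The nearer end of the host gene, or of the nearest gene for regions between genes, was within 50 kb for 73.5% of them. A non-coding gene began or ended within 2 kb of 633 (17.2%), most often a lncRNA (453 regions), then a pseudogene (88), an snRNA (34), a tRNA (29) or a microRNA (23). Annotated start sites could be looked up for 3533 regions, since 145 members lie on chromosome 18, which the start table leaves out. Of these, 464 (13.1%, 12.1 to 14.3%) held a protein-coding start, 194 (5.49%, 4.79 to 6.29%) held a lncRNA start, and 620 (17.5%) held one or both. Regions away from gene ends with peaks in both ASC libraries alone held a start in 182 of 12733 cases (1.43%, 1.24 to 1.65%), and those with peaks in both FISC libraries alone in 80 of 4660 (1.72%, 1.38 to 2.13%). Distal regions with a peak in every library but several peaks in some held one in 14.3%. A single peak in every library is part of the selection, so these shares are given side by side without a test.

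The protein-coding starts were alternative starts of the gene around them. Of 464 such regions, 463 held a start of their host or nearest gene and 3 also held the gene's outer start. The held start and the outer start were a median of 7.647 kb apart. At 263 of these regions (56.7%) no library had a peak of another region within 2 kb of the outer start. At 153 (33.0%) all 4 libraries had one, and at 45 from 1 to 3 libraries did. The region's own peaks, which may reach that far, were not counted. At Nfyc the held start lay 5.838 kb from the outer start, and no library had a peak there. At Psma3 it lay 5.34 kb away, and all 4 libraries had one. The median summit of the 4 libraries lay downstream of the held start in 85.3% of regions, by a median of 200 bases over all of them. Windows at these starts were rich in CpG: 561 windows of 456 genes had a median of 62.7% G and C and an observed over expected CpG ratio of 0.778, near the 62.0% and 0.808 of 5475 windows in gene-end single-peak regions and above the 48.7% and 0.223 of 9777 windows in no region. GGGCGG was found in 62.9% of the windows in constant distal regions, in 67.7% at gene ends, in 20.5% of windows in no region and in 46.2% of all 21263 protein-coding windows. CCAAT was in 31.4%, 36.4%, 39.1% and 38.2% in that order, and CCGGAAG in 14.3%, 23.0%, 2.68% and 11.6%. TATAAA was in 5.53% against 12.6% of all windows, TGANTCA in 4.63% against 6.99%, TGACGTCA in 2.85% against 2.23%, and the E-box CANNTG in 59.7% against 69.0%. These are letter matches on both strands, which may overlap each other, and do not show binding.

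Regions with a start were stronger and wider than those without. With a protein-coding start the median fold enrichment at the summit, the authors' ratio over local background, was 19.0 in ASC replicate 1 and 18.9 in ASC replicate 2, against 11.3 in FISC replicate 1 and 11.5 in FISC replicate 2 (464 regions). The 2913 regions without a start had medians of 6.29 and 6.73 in ASC, against 5.11 and 5.45 in FISC. A lncRNA start alone (156 regions) gave 12.1 and 12.2 in ASC, against 7.26 and 7.59 in FISC. In all 4 libraries the order was the same, and medians of regions with a protein-coding start were close to those of gene-end single-peak regions, 18.3 and 18.2 in ASC against 11.3 and 11.3 in FISC. Median width followed this order too. It was 1407 and 1500 bases in ASC and 1277 and 1258 in FISC with a protein-coding start, and 678 and 822 against 590 and 572 bases without any. The log2 gap in median fold between regions with a protein-coding start and those without was 1.60 and 1.49 in ASC and 1.14 and 1.08 in FISC. The gap was larger in both ASC libraries (exact 2-sided permutation p = 0.33, the smallest that 2 against 2 libraries can give).

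**Figure D1:**
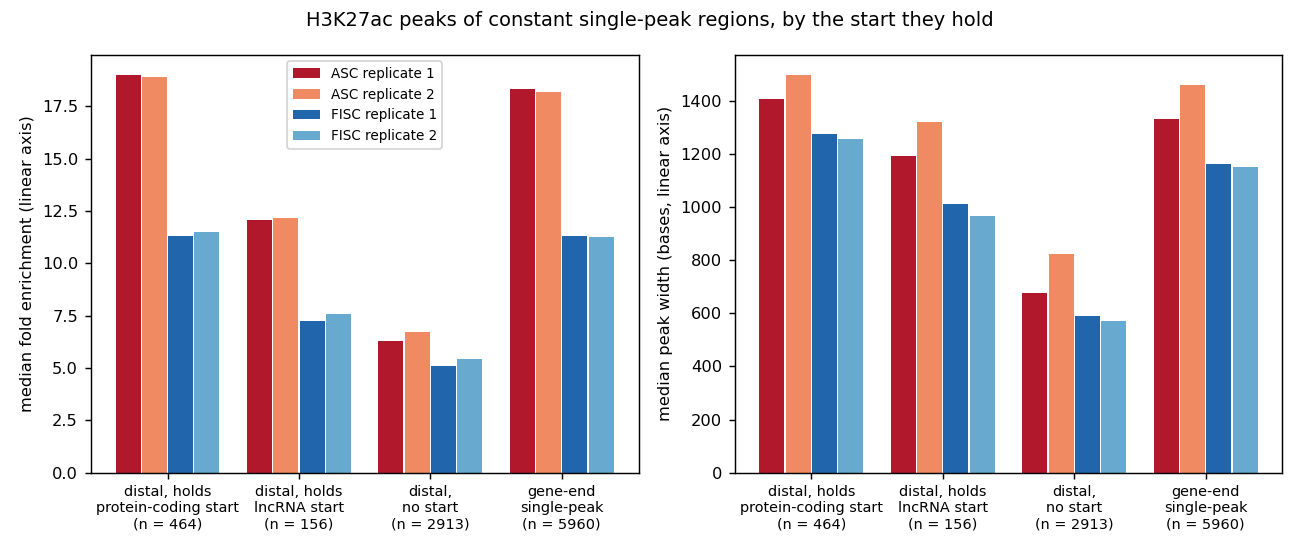
Median fold enrichment (left panel) and median peak width in bases (right panel) of constant distal regions that hold a protein-coding start, a lncRNA start or no start, and of gene-end single-peak regions, with 1 bar per library (red and orange ASC, dark and light blue FISC, n = 2 each). Regions with a protein-coding start stand at 18.9 to 19.0 in ASC and 11.3 to 11.5 in FISC, like gene-end regions, and those without a start at 5.11 to 6.73.

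The members differed by how far they lay from a gene end. At 2 to 2.5 kb (129 regions) the median fold was 10.8 and 11.4 in ASC and 7.53 and 7.33 in FISC, and 44.1% of regions held an annotated start. Beyond 100 kb (468 regions) the medians were 6.01 and 6.47 in ASC and 4.84 and 5.24 in FISC, and 7.38% held a start. Regions at 1.5 to 2 kb, which the selection left out, had medians of 14.1 and 13.2 in ASC and 8.34 and 8.40 in FISC. The 3 members just inside the limit, with midpoints 2001 to 2013 bases from a gene end, were at the zinc finger gene Zfp446 (folds of 19.4 and 17.2 in ASC, 12.1 and 12.8 in FISC), at Fkbp14 (4.81 and 5.18 in ASC, 5.38 and 7.59 in FISC) and at Atp5l (3.91 and 5.18 in ASC, 5.38 and 4.71 in FISC). The 3 regions just outside it, at 1995 to 2000 bases, were at Ptprs, a receptor tyrosine phosphatase (4.60 and 8.55 in ASC, 5.38 and 4.71 in FISC), at Zfp846 (33.1 and 29.5 in ASC, 21.5 and 28.3 in FISC) and at the ribosomal protein gene Rpl17 (40.6 and 38.8 in ASC, 29.1 and 21.5 in FISC). Strong and weak regions thus stood on either side of the limit.

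**Figure D2:**
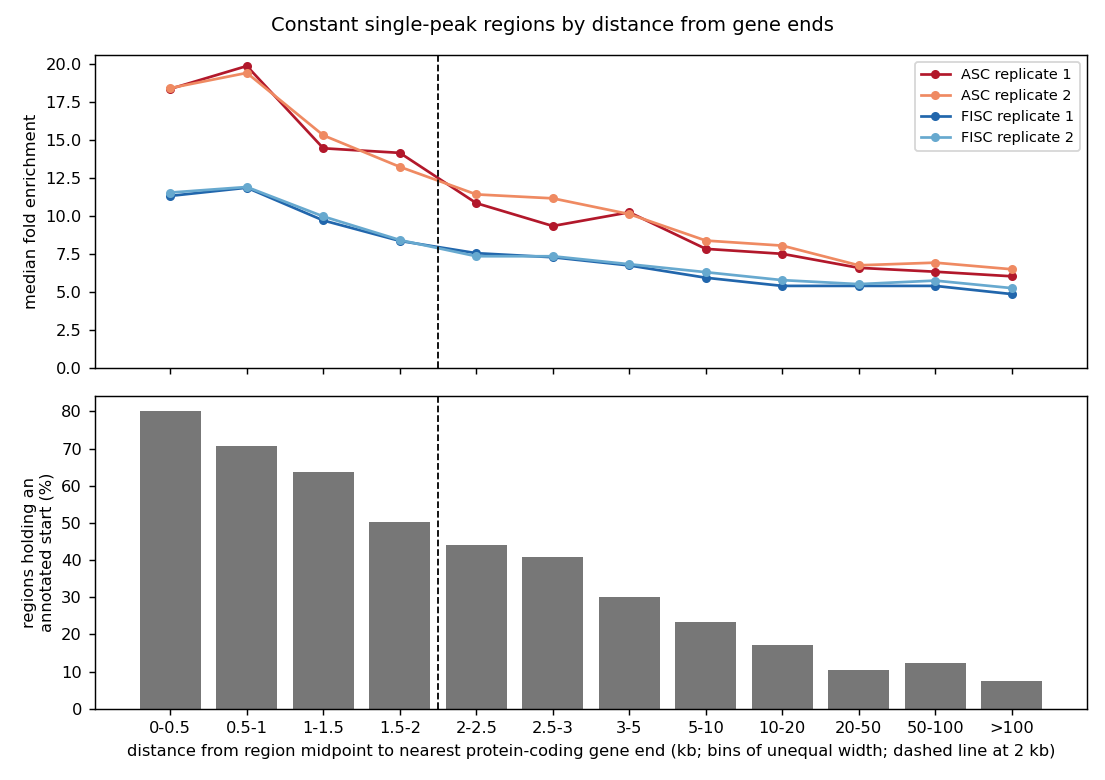
Median fold enrichment per library (top) and share of regions with an annotated start (bottom, percent) for all single-peak regions by distance of the midpoint from the nearest protein-coding gene end in kb; regions right of the dashed line at 2 kb are the constant distal regions. Fold and start share are lowest beyond 100 kb, and the ASC lines lie above the FISC lines in every bin.

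Of the 8 members with the highest mean fold, several held a start site or lay at a non-coding gene. The region in Nfyc (chr4:120824155-120826387) had folds of 48.4 and 44.0 in ASC and 27.7 and 28.5 in FISC. Psma3 (chr12:70974206-70976168) had 44.2 and 41.2 in ASC and 26.4 and 28.8 in FISC. Hivep2 (chr10:13963351-13969099) had 47.2 and 37.8 in ASC and 25.02 and 24.61 in FISC. In each of these the ASC libraries lay above the FISC libraries without overlap, at ratios of 1.64, 1.55 and 1.70 in that order, close to the shift of all shared regions given below. Hnrnpu, an RNA-binding protein of the nuclear matrix, had 42.4 and 37.8 in ASC against 26.4 and 26.4 in FISC. A region 76.3 kb from Chd2, a chromatin remodeller, had 42.4 and 38.6 in ASC against 27.7 and 25.1 in FISC. Width showed another order. The widest member by its mean over the 4 libraries lay 9.91 kb from Zswim4 (chr8:84196448-84205615) and spanned 9070 and 8963 bases in ASC and 8614 and 8594 in FISC. The others among the 5 widest by that mean were the regions at Hivep2, Denn2b, a guanine exchange factor, Mettl21a, a lysine methyltransferase, and Itpripl2, with widths of 4177 to 5749 bases in ASC and 3997 to 5226 in FISC.

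Among the members at non-coding genes, those over snRNA genes had high fold values. Over 27 snRNA genes, the RNAs of the spliceosome and of related particles, lay 26 constant distal regions with a median fold of 25.9 and 24.6 in ASC and 13.3 and 16.4 in FISC. The strongest was at Gm22634, near Eapp (chr12:54709639-54710869), with 47.2 and 38.9 in ASC and 28.8 and 26.2 in FISC. Fold was higher in ASC on both scales defined below in 7 of the 26 and lower in none, beside 13% higher and 3.87% lower among all shared regions. snRNA genes have near-identical copies, so where their reads were placed is uncertain. Terc, the RNA of telomerase, named after its values were seen, lay in a region (chr3:96414153-96414899) with 14.7 and 14.2 in ASC and 4.84 and 4.19 in FISC. That is 3.22 times higher in ASC (log2 difference 1.69, SE 0.21, adjusted p = 4.83e-06 as deposited and 8.67e-04 centred, limma). Without ASC replicate 1 the centred adjusted p was 0.0592.

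The let-7i hairpin lay in the strongest of the microRNA regions (chr10:122983050-122987459, 6.81 kb from Mon2, a protein of endosome traffic). Fold was 47.5 and 43.0 in ASC and 23.4 and 24.9 in FISC, and the peak spanned 4063 and 4410 bases in ASC and 2334 and 2547 in FISC. The libraries of the conditions do not overlap on either measure. The difference in width was 0.80 on the log2 scale (SE 0.10, adjusted p = 0.0035, limma) and also passed with libraries centred on their medians (adjusted p = 0.0221). The miR-193a region (chr11:79710695-79713547) showed the same: 2697 and 2822 bases in ASC against 1626 and 1478 in FISC (log2 difference 0.83, SE 0.11, adjusted p = 0.00497, limma). Widths at miR-26a-1 in Ctdspl were 484 and 559 bases in ASC and 669 and 571 in FISC, and at miR-199a-1 in Dnm2 421 and 480 in ASC and 337 and 419 in FISC; neither passed. Fold at the miR-203 region was 22.2 and 18.4 in ASC and 17.5 and 16.2 in FISC, higher as deposited by 0.26 (adjusted p = 0.110) and lower by 0.45 when centred (adjusted p = 0.0239).

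Over all members, peaks were stronger and wider in ASC. Median fold was 7.02 and 7.51 in ASC, 7.26 ± 0.35 (SD, n = 2), and 5.65 and 5.76 in FISC, 5.70 ± 0.08 (SD, n = 2), with exact 2-sided permutation p = 0.33. Median width was 766 and 900 bases in ASC and 654 and 653 in FISC (exact p = 0.33). In sum the members covered 3.70 and 4.22 Mb in ASC and 3.16 and 3.14 Mb in FISC. The medians of the 19493 regions shared by the 4 libraries shifted in the same direction, and further in fold. Their median log2 fold was 0.71 higher in ASC (1.64 times, against 1.27 times for the median fold of members). Their median log2 width was 0.37 higher (1.29 times, against 1.27 times for the median width of members). Where a shared region held several peaks of a library, its width is their summed bases, while a member's width is that of 1 peak. Fold enrichment depends on the depth and background of each library, so a shift of all regions and a difference between the cells cannot be told apart here. In bulk chromatin, fewer cells with the mark and less mark per cell cannot be told apart either. Differences are therefore given as deposited and after centring each library on its median over the shared regions. On the deposited scale the median member differed by 0.36 in log2 fold, on the centred scale by -0.35.

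The deposited difference was smaller at weak peaks. Members with a geometric mean fold over the 4 libraries of 4 to 6 (1444 regions) had a median deposited log2 difference of 0.04, those of 6 to 8 (701 regions) 0.57, and those of 16 to 24 (279 regions) 0.70. Gene-end single-peak regions of the same strength had 0.07, 0.40 and 0.69. Weak peaks were more frequent among the members: 254 had a mean fold of 2 to 4 and 1444 of 4 to 6, against 41 and 586 of the 5960 gene-end regions. Fold values fell on a grid, with steps of 0.301, 0.259, 0.269 and 0.262 in ASC replicate 1 and 2 and FISC replicate 1 and 2, onto which 66.9 to 83.3% of members fell within 0.01 of a step. Read as 1 fragment per step, the median member had 23.3 and 29.0 fragments at its summit in ASC and 21.0 and 22.0 in FISC. Depth itself is unknown. A weak peak rests on few reads, and a weak region entered only where all 4 libraries passed the peak caller's limit.

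**Figure D3:**
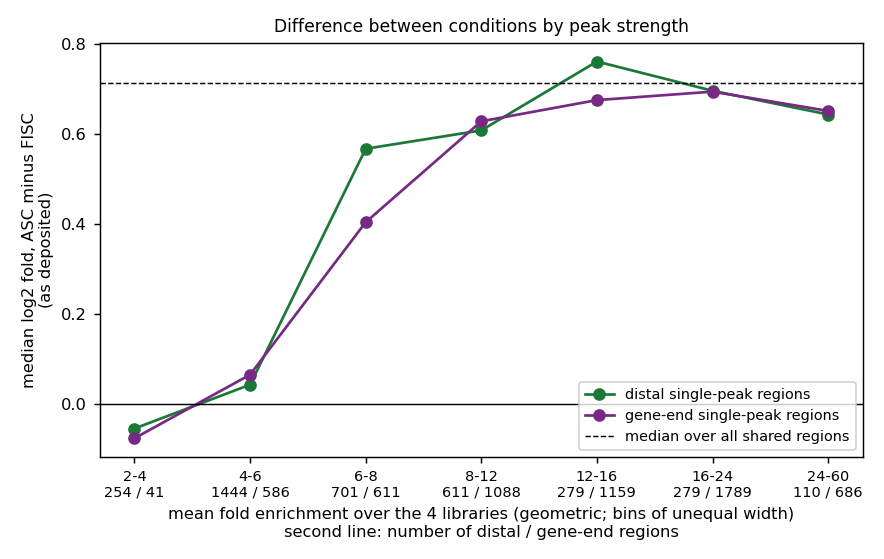
Median log2 fold difference, ASC minus FISC as deposited, against geometric mean fold enrichment over the 4 libraries, for constant distal regions (green) and gene-end single-peak regions (purple), with numbers of regions under the bins and the median shift of all shared regions as a dashed line. Both sets lie near 0 below a mean fold of 6 and near the dashed line above 12.

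Calls were made with limma across all 19493 shared regions at a Benjamini-Hochberg adjusted p of at most 0.05. Fold was higher in ASC in 376 members (10.2%) after centring, against 13% of all shared regions, and lower in 1425 (38.7%), against 25.4%. As deposited it was higher in 1559 (42.4%), against 62%, and lower in 228 (6.20%), against 3.87%. The 376 higher and 228 lower regions passed on both scales (13% and 3.87% of all shared regions) and are the ones called higher or lower below. Centring takes the same 0.71 from every log2 difference, so passing on both scales is not independent support. The centred scale alone set the higher calls, and the deposited scale alone set the lower calls. Peaks were wider in ASC in 643 members (17.5%), against 25.3% of shared regions, and narrower in 156 (4.24%), against 3.86%. In shared regions with several peaks the summed bases also change when a peak is added or lost, so the width shares of shared regions are not those of single peaks. With widths centred too, 403 were wider, against 12.7%, and the same 156 narrower. Both fold and width rose in 278 members (7.56%, against 9.81% of shared regions) and both fell in 73 (1.98%, against 1.69%). No shared region, member or not, had called changes of opposite sign. For 2807 members (76.3%, against 75% of shared regions) neither measure held a call on both scales, which does not show that they were equal. Selection asked for presence in the same libraries, so nothing is read from these shares against those of all regions. The centred calls numbered 125 higher and 587 lower when ASC replicate 1 was left out, and 188 and 778 when ASC replicate 2 was left out. Wider peaks numbered 343 and 252 in these fits. Narrower ones numbered 63 without ASC replicate 1, 50 without FISC replicate 1 and 54 without FISC replicate 2. In width the ASC pair lay wholly above the FISC pair at 1622 members (44.1%, against 57.1% of shared regions) and wholly below it at 689 (18.7%, against 13.6%). In centred fold it lay above at 674 (18.3%, against 25.6%) and below at 2071 (56.3%, against 43.1%).

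**Figure D4:**
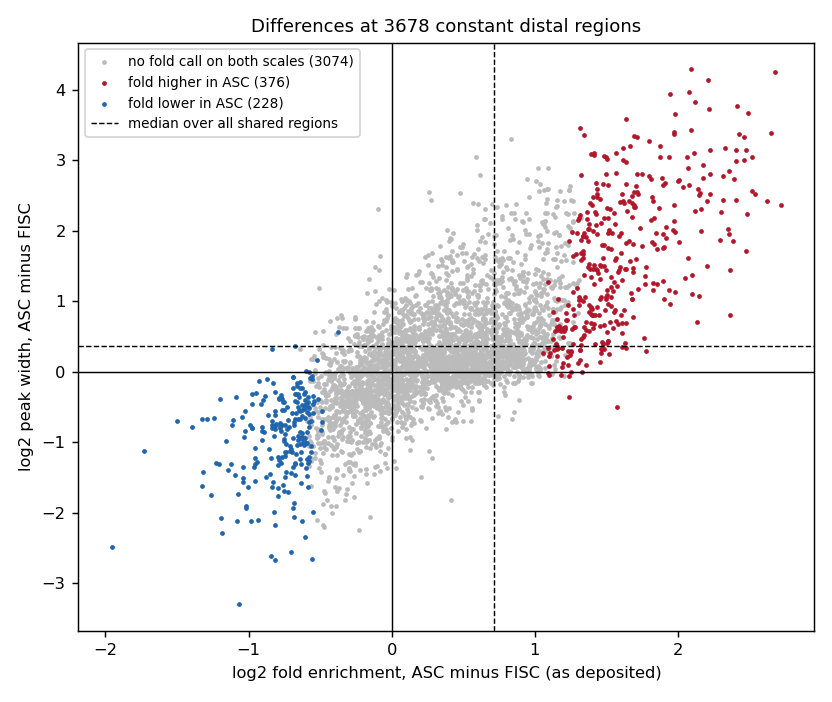
Log2 difference in peak width against log2 difference in fold enrichment as deposited, ASC minus FISC, for each of 3678 constant distal regions; red marks the 376 higher and blue the 228 lower on both scales, and dashed lines mark the median shift of all shared regions. Higher regions lie mostly above 0 in width, and lower ones mostly under 0.

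The 6 largest fold differences upward were all weak in FISC and strong in ASC, and none held an annotated start. The region inside Fam13c (chr10:70519749-70521774) had folds of 30.5 and 21.1 in ASC and 3.77 and 3.93 in FISC. That is 6.59 times higher in ASC (log2 difference 2.72, SE 0.21, adjusted p = 1.05e-07 as deposited and 1.70e-07 centred, limma). Tiam2, an activator of the GTPase Rac, held one 92.5 kb from its ends (chr17:3416430-3421239) with 21.5 and 25.4 in ASC and 3.77 and 3.54 in FISC. Near Rsl24d1, a factor of ribosome assembly, values were 27.5 and 19.8 in ASC and 3.77 and 3.66 in FISC. In Myom2, a protein of the sarcomere's M-band, they were 23.4 and 22.3 in ASC and 2.51 and 5.50 in FISC. Katnal1, related to the microtubule-severing enzyme katanin, had 25.7 and 21.8 in ASC and 4.16 and 3.96 in FISC. Bcar3, an adaptor in integrin signalling, had 16.5 and 20.2 in ASC and 4.04 and 2.52 in FISC. Ratios ran from 5.73 to 6.59 and adjusted p-values from 8.31e-08 to 1.29e-06 as deposited (limma). All 6 were wider as well, by 5.13 to 19.1 times, though the width call in Myom2 was lost without ASC replicate 1 (adjusted p = 0.0629, limma) and without ASC replicate 2 (0.0606).

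The 6 largest downward fold differences were weaker in ASC by 2.50 to 3.88 times. Mindy4, which encodes a deubiquitinase, held a region (chr6:55210252-55211583) with folds of 3.28 and 3.63 in ASC and 12.9 and 13.9 in FISC (log2 difference -1.96, SE 0.22, adjusted p = 2.06e-06 as deposited and 1.72e-08 centred, limma). Its peak was 200 and 261 bases wide in ASC and 1325 and 1230 in FISC. A region 32.5 kb from Arl4d, a small GTPase, had 6.61 and 7.04 in ASC and 21.3 and 24.1 in FISC. In Cdh13, the cadherin anchored to the membrane by a lipid, a region 462 kb from either gene end had 2.85 and 5.18 in ASC and 10.2 and 11.5 in FISC. At 207 kb from Pde3a, a phosphodiesterase of cyclic nucleotides, values were 4.81 and 5.96 in ASC and 15.3 and 12.9 in FISC. The region 64.1 kb from Efcab11 holds the start of the lncRNA 1700064M15Rik. Its values were 6.91 and 7.25 in ASC and 18.0 and 17.5 in FISC. Near Insig2, which holds back the activation of sterol regulatory factors, folds were 4.11 and 3.08 in ASC and 7.96 and 9.95 in FISC. The conditions did not overlap in any of the 12, and the centred call of each also passed without each library in turn. Fold as deposited, the scale that sets the lower calls, was not refitted without a library, here or for the lower regions below.

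**Figure D5:**
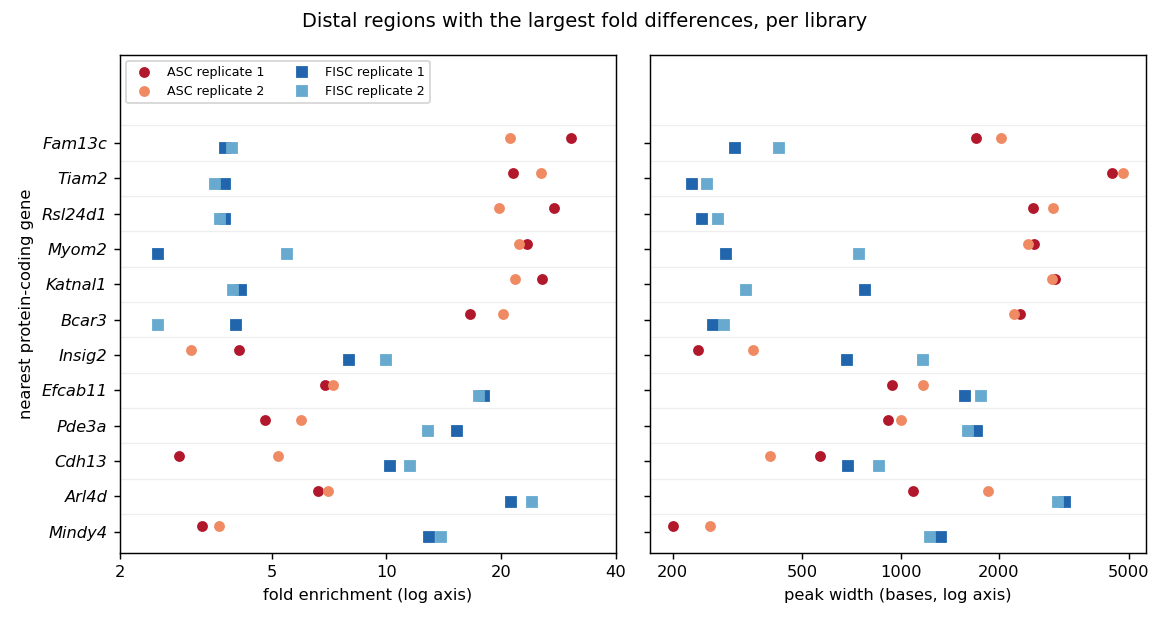
Fold enrichment (left, log axis) and peak width in bases (right, log axis) in each library for the 6 constant distal regions with the largest fold difference in each direction, named by nearest gene; circles are ASC and squares FISC libraries. ASC circles lie right of the FISC squares in the upper 6 and left of them in the lower 6 on both measures.

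Width set apart a partly different group. The region in Kcnj12, a potassium channel (chr11:61059274-61065176), spanned 5900 and 5833 bases in ASC and 270 and 333 in FISC, 19.6 times wider in ASC (log2 difference 4.29, SE 0.17, adjusted p = 4.43e-04, limma). Tiam2 was next with 4434 and 4810 bases in ASC and 230 and 254 in FISC. Near Ktn1, the kinesin partner kinectin, the peak spanned 6522 and 6418 bases in ASC and 327 and 408 in FISC. At 167 kb from Tgfb2, a ligand of the TGF-beta family, it spanned 3539 and 3799 in ASC and 215 and 255 in FISC. Regions 41.5 kb from Selenof, a selenoprotein of the endoplasmic reticulum, and 369 kb from Atp6ap1l completed the 6. These last were wider in ASC by 15.3 and 14.2 times. In the FISC libraries the 6 peaks were 200 to 408 bases wide. The shortest length in each list is 200 bases, which limits the ratio where a width is close to it, as at Selenof, Tgfb2 and Tiam2.

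In the other direction, the peak in Rftn1, a protein of lipid rafts, spanned 271 and 200 bases in ASC and 2174 and 2413 in FISC, 9.84 times narrower in ASC (log2 difference -3.30, SE 0.28, adjusted p = 0.00129, limma). Near Tmco5 it spanned 218 and 215 bases in ASC and 1289 and 1493 in FISC. At the Foxred2 start, whose sequence is printed above, it spanned 282 and 200 bases in ASC and 1804 and 1255 in FISC, while fold was 4.51 and 4.14 in ASC and 6.99 and 5.76 in FISC. Near Nfatc1, a calcineurin-dependent transcription factor, widths were 200 and 308 bases in ASC and 1495 and 1548 in FISC. In Cdkal1, an enzyme that modifies transfer RNA, they were 200 and 281 in ASC and 1381 and 1409 in FISC.

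Each region was counted for 1 gene, its host or else the gene with the nearest end. It had to lie within 50 kb of that gene's ends. Of 12 regulators of satellite cells, 3 had a constant distal region counted in this way, beside 9.98% of all protein-coding genes. Pax7 had 4, all inside the gene, and Spry1 and Met had 1 each. No region was counted for Myf5, Myod1, Myog, Cdkn1c, Calcr, Hey1, Notch1, Notch3 or Itga7, though regions assigned to their neighbours may lie within 50 kb of them. The 4 in Pax7 were weak, with folds of 3.58 to 5.70 in ASC and 3.77 to 6.02 in FISC over all of them, and no difference passed on both scales or in width. After centring, 3 of the 4 were lower in ASC, and as deposited their adjusted p-values ran from 0.183 to 0.488. The region near Spry1, an inhibitor of growth factor signalling linked to quiescence, lay 27.9 kb from the gene (chr3:37671636-37673457). It was 303 and 330 bases wide in ASC and 1240 and 1822 in FISC, narrower in ASC by 4.75 times (log2 difference -2.25, SE 0.30, adjusted p = 0.0047, limma), with folds of 4.18 and 4.296 in ASC and 4.69 and 5.24 in FISC. In Met, the receptor of hepatocyte growth factor, fold was 6.31 and 5.81 in ASC and 7.53 and 9.90 in FISC, lower in ASC after centring (adjusted p = 1.45e-04) and short of the threshold as deposited (adjusted p = 0.0543).

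Counted for their host or nearest gene, constant distal regions were spread thinly: 2185 genes had at least 1 within 50 kb, and 1782 of them exactly 1. Irs2, an adaptor of the insulin receptor, had 5, of which the one 36.2 kb away rose: 9.92 and 10.1 in ASC against 4.304 and 2.709 in FISC (2.93 times, adjusted p = 5.77e-05 as deposited and 0.00962 centred, limma). Without ASC replicate 1 the centred adjusted p of that region was 0.148, without ASC replicate 2 0.126 and without FISC replicate 2 0.206. Zeb2, a zinc finger repressor, had 5, and one 21.8 kb outside the gene (chr2:44960418-44963033) was 2261 and 2610 bases wide in ASC and 290 and 526 in FISC (6.22 times, adjusted p = 0.00359, limma). Alg14, an enzyme of protein glycosylation, also had 5, and none passed on both scales in fold or in width. Antxr1, a receptor of collagen, had 4. Of these the one 19.1 kb from its ends (chr6:87315918-87317467) fell in both measures, with folds of 4.21 and 4.92 in ASC against 7.90 and 8.12 in FISC and widths of 203 and 304 bases against 1177 and 1061.

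Members were also counted for the genes of 9 lists, each member for its host or nearest gene only and within 50 kb of that gene's ends. The lists were chosen with results of these libraries known, and their genes are longer or shorter than most, so shares are given beside those of all 21900 protein-coding genes, of which 9.98% had a member within 50 kb. Of 21 factors and cofactors of the Runx, Tead, Stat, Smad and nuclear factor I families and their like, 14 had one (66.7%, 23 regions, median gene length 72.6 kb against 17.1 kb for all genes). Quiescence genes had one in 10 of 24, extracellular matrix genes in 8 of 20, inflammatory mediators in 6 of 16, immediate early genes in 8 of 22, satellite cell identity genes in 6 of 18, Notch pathway genes in 6 of 20, genes of myogenic commitment and the sarcomere in 5 of 23 and cell cycle genes in 3 of 27. Over all genes, 273 of the 2705 members within 50 kb were higher in fold and 149 lower.

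Among inflammatory mediators, 2 regions rose. Near Cxcl1, a chemokine that draws neutrophils, the region (chr5:90874402-90878320) had folds of 33.7 and 31.6 in ASC and 7.53 and 4.59 in FISC, 5.55 times higher in ASC (log2 difference 2.47, adjusted p = 4.35e-07 centred, limma). Of the 4 regions of Tnfaip3, an inhibitor of NF-kB signalling, the one at 31.0 kb rose, 15.4 and 17.4 in ASC against 4.57 and 3.78 in FISC. These were the 2 higher among the 10 members of the inflammatory list, and none was lower. In width 4 of the 10 were wider, beside 461 wider and 106 narrower of the 2705 members near any gene. The width call near Csf1, a growth factor of macrophages (946 and 1195 bases in ASC, 473 and 497 in FISC, adjusted p = 0.0271, limma), was lost after centring (0.0666) and without each library in turn (0.0565 to 0.149). Il1b, a cytokine, had 993 and 1782 bases in ASC and 247 and 200 in FISC (adjusted p = 0.00672, limma). Near Tnc, tenascin-C of the matrix, 2 of 3 regions rose, with 13.23 and 15.02 in ASC against 4.04 and 3.93 in FISC at 12.1 kb, and 12.3 and 10.6 in ASC against 3.77 and 4.97 in FISC at 30.3 kb. The second of these has a centred adjusted p of 0.193 without ASC replicate 1, 0.0762 without ASC replicate 2 and 0.139 without FISC replicate 1. Near Col3a1, a fibrillar collagen, the region fell, 3.31 and 3.52 in ASC against 6.99 and 6.81 in FISC. The other 8 of the 11 matrix members had no call on both scales.

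In the immediate early list 2 of 10 members were higher and none lower. A region 31.4 kb from Jun, a subunit of AP-1, had 13.53 and 11.37 in ASC and 3.77 and 3.96 in FISC (3.21 times, adjusted p = 0.00139 centred, limma; 0.0652 without ASC replicate 1). Near Ier5 values were 21.9 and 22.0 in ASC and 8.88 and 9.69 in FISC (adjusted p = 0.0114 centred; 0.107 without ASC replicate 1 and 0.0776 without ASC replicate 2). The 2 members near Fos, the partner of Jun, had 11.61 and 13.21 in ASC against 6.19 and 6.02 in FISC, and 9.92 and 9.32 in ASC against 4.04 and 4.71 in FISC, and did not pass after centring. The second of them was wider, 2853 and 3098 bases in ASC against 878 and 482 in FISC (adjusted p = 0.00461, limma). The region near Jun was wider too, 2546 and 2540 bases in ASC against 656 and 312 in FISC (adjusted p = 0.00602, limma). Near Fosb, another gene of the list, the peak was narrower, 1102 and 1633 bases in ASC against 2206 and 2185 in FISC (adjusted p = 0.0488, limma). Near Myc fold was 28.3 and 24.3 in ASC and 19.4 and 21.7 in FISC, less than the shift of all shared regions. In the list of Runx, Tead, Stat and Smad factors 1 of 23 members was higher, near the inhibitory Smad7, and 1 was lower, in Runx1. The Smad7 region had 33.4 and 32.4 in ASC and 12.37 and 15.97 in FISC (adjusted p = 0.00737 centred; 0.126 without ASC replicate 1, 0.0742 without ASC replicate 2 and 0.174 without FISC replicate 1). That in Runx1 had 3.91 and 2.97 in ASC and 5.65 and 4.97 in FISC.

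Notch pathway genes went both ways. The region near Dll1, a Notch ligand, had folds of 17.0 and 10.6 in ASC and 4.57 and 3.66 in FISC and was 2744 and 2511 bases wide in ASC and 418 and 340 in FISC (fold 3.29 times higher, adjusted p = 0.00218 centred, limma; 0.152 without ASC replicate 1). Jag1, another ligand, had 4.51 and 4.66 in ASC and 6.19 and 9.95 in FISC, and Dtx4, a ubiquitin ligase acting on Notch, 2.64 and 4.92 in ASC and 7.80 and 8.12 in FISC, both lower on both scales. Of the 2 regions in Rbpj, the DNA-binding partner of Notch, neither was called in fold on both scales, and 1 was wider, 1369 and 1329 bases in ASC against 262 and 307 in FISC. Among satellite cell identity genes, none of 12 members was higher and 2 were lower: one near the adhesion molecule Vcam1, with 3.61 and 3.63 in ASC against 6.46 and 7.85 in FISC, and 1 of the 4 at Ncam1, with 3.39 and 4.62 in ASC against 5.65 and 6.93 in FISC. Among 15 members of the quiescence list no fold call held on both scales, Foxo3, a forkhead factor of quiescence, had a wider peak (1355 and 1535 bases in ASC, 553 and 688 in FISC; adjusted p = 0.0135, limma, and 0.0613 and 0.0861 without ASC replicate 1 and 2), and Spry1 a narrower one. Of 6 myogenic and sarcomere members, 1 rose, near the skeletal actin gene Acta1, with 25.4 and 23.6 in ASC against 4.304 and 5.759 in FISC (4.91 times, adjusted p = 1.12e-06 centred, limma). Myh8, the perinatal myosin, had a narrower peak, 662 and 798 bases in ASC against 1630 and 1676 in FISC. In the cell cycle list, 1 of 4 members had a wider peak, near Ccne1, cyclin E1, with 758 and 805 bases in ASC against 358 and 213 in FISC, and its adjusted p was 0.0734 when centred and 0.105, 0.129 and 0.0910 without ASC replicate 1, ASC replicate 2 and FISC replicate 2 (limma).

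Markers of other cells were checked beside these lists. None of the fibro-adipogenic, lymphoid, smooth muscle, Schwann or liver markers was the host or nearest gene of a constant distal region within 50 kb. Among endothelial markers only Tek, which the quiescence list also holds, had any (2 regions), among myeloid markers only Csf1r (1 region) and among neuronal markers only Snap25 (1 region), and no fold or width call held for these 4. At the gene ends of fibro-adipogenic markers, 1 of 5 was covered in both ASC libraries, Ly6a (1.44 and 2.42 kb), and none in FISC. Pdgfra, Dcn, Col1a1 and Lum were uncovered in every library. Ends of smooth muscle and pericyte markers were covered over 2.63 and 3.26 kb in ASC and 4.74 and 4.85 kb in FISC, and endothelial ends over 1.22 and 1.79 kb in ASC and 2.10 and 2.56 kb in FISC, with Pecam1, Cdh5 and Rgs5 at 0 in all libraries. Myeloid ends covered summed to 1.87 and 3.85 kb in ASC and 1.55 and 1.05 kb in FISC, with Ptprc, Adgre1, Itgam and Lyz2 at 0 in all libraries. The part of such cells in the differences given here was not tested.

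The position of the mark within a member was also compared. Summits of the same region lay a median of 68 bases apart between the ASC libraries, 83 between the FISC libraries and 85 to 92 between an ASC and a FISC library (same-condition minus mixed pairs -13 bases, exact permutation p = 0.33 over the 3 pairings, the smallest possible). At gene-end single-peak regions the distances were 41, 52 and 52 to 54 bases, and at members with a protein-coding start 42.5, 59 and 57 to 64. The bases under the peaks of a pair overlapped with a Jaccard index of 0.783 between the ASC libraries, 0.743 between the FISC libraries and 0.592 to 0.599 in mixed pairs. All 4 peaks shared at least 1 base in 94.0% of members, with a median of 388 bases, and in 219 members no base was common to all 4. Members were seldom alone: within 10 kb lay a median of 2 other union regions, and 22.7% had none, against a median of 1 and 46.1% at gene-end single-peak regions. Distal regions with a peak in every library but several in some had a median of 3, and 11.9% had none. A distal region with peaks in both ASC libraries alone lay within 10 kb of 859 members (23.4%). The share was 10.2% at gene-end single-peak regions and 31.7% at the distal regions with several peaks. A distal one with peaks in both FISC libraries alone lay near 560 members (15.2%), against 4.13% and 20.3% in that order. Regions of either condition alone within 2 kb of gene ends were not counted, so the shares at gene-end regions are not comparable with the others.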

How the data were processed

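H3K27ac of ASC and FISC was read from 4 narrow peak lists, 1 per library, and the 4 inputs entered no comparison. Peak calling by the authors used build mm10, and bcl2fastq 2.19, BWA, Picard and MACS2 are named, per the submitters' processing notes. Their settings, duplicate handling and use of inputs were not given in the sources used here. Each deposited fold column is the authors' ratio of summit reads over local background. Values of p and q were deposited as −log10, the deposited score was not compared, and the deposited summit offset gave summit positions. Depth per library is unknown.

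Peaks overlapping by 1 base or more were merged in Python 3.11.15 (pandas 2.3.3). Genes and starts came from RefSeq tables on GRCm38.p6, the assembly of mm10. Width is log2 of the bases under the peak, summed where a region held several peaks of a library. Fold is log2 of the highest fold in the region, centred on each library's median. Both were fitted with limma 3.58.1 (R 4.3.3; eBayes with trend, no covariate) over all 19493 shared regions, with Benjamini-Hochberg adjustment and a threshold of 0.05, and the fits were tested on simulated data. Fold was also fitted as deposited, and calls on both scales lead the text. Library medians were compared by exact 2-sided permutation tests. The planned sequence analysis round summits was not run here; only promoter windows were searched.

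Members and lists were chosen with earlier results of these data known. Regions take the name of their host gene or else the gene with the nearest end. Named are the 8 members of highest mean fold, the 5 widest, the 5 genes with most members (ties in alphabetical order; 1 of them is not reported here), the 6 largest called differences in each direction of fold and of width, members within 50 kb of 12 regulators, the 3 strongest at non-coding gene ends, members with a microRNA hairpin and members near listed genes. Predicted genes and clone names are passed over. Alternatives were stricter peaks, 100 bases of overlap, limits of 1 and 5 kb, every gene's ends, other scalings, a replicate block, and each library left out. With a library left out, fold was fitted on the centred scale only.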

Additional observations from a re-analysis of the deposited data

How the results depend on the processing

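With 2 libraries per condition, no permutation test could reach 0.05, and calls per region rest on a variance shared across regions. Merging, the 2 kb limit and the peak caller's threshold set which regions exist. The number of members was 3678, from 2811 to 4137 under the 6 alternatives of peaks, overlap and distance, and 5388 to 5679 when 1 library was left out, since fewer lists then had to hold a peak. Peaks with −log10 q of at least 5 and peaks with fold of at least 5 moved the median width difference (179 bases) to 264 and 344 bases, the median fold difference (1.56) to 3.28 and 4.41, the share inside genes (57.9%) to 60.1 and 62.6%, and the share with an annotated start (17.5%) to 24.04 and 27.79%. Leaving out 1 library gave fold differences of 0.937 to 1.71, shares inside genes of 58.6 to 59.6% and shares with a start of 13.4 to 14.8%. At a limit of 1 kb the last 2 shares were 61.4 and 22.1%, at 5 kb 55.4 and 14.0%, and with 2 kb from the ends of every gene 63.1 and 13.9%. The alternatives for the share with a start, and calls on both scales (376 higher, 228 lower), were chosen after seeing the data.

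With −log10 q of at least 5, 311 members were wider and 62 narrower in ASC, and 181 were higher and 792 lower in centred fold; fewer regions entered that fit. Centring widths gave 403 wider and 451 narrower, and fold as deposited gave 1559 higher and 228 lower. Without each library in turn, 252 to 548 were wider and 50 to 137 narrower, and 125 to 323 were higher and 587 to 1101 lower in fold; fewer samples entered those fits. The replicate block gave 622 wider, 161 narrower, 403 higher and 1510 lower. Libraries of the same replicate number showed almost no shared deviation over regions (correlation of deviations 0.003 for width and 0.03 for fold). The labels do not say whether they were paired, so the block may share only a number. As deposited, 9 centred calls of lower fold changed sign: Zeb2 (0.024), Aspg (0.26), Btg2 (0.019), Socs3 (0.027), Myc (0.35), Mef2d (0.35), Klf4 (0.12), Tead1 (0.032) and Ncam1 (0.12). Of 318 values of named regions, 55 lost a call without ASC replicate 1, 49 without ASC replicate 2, 30 without FISC replicate 1 and 31 without FISC replicate 2. Only 140 of the 318 values were calls to begin with, so only those could lose one. For the other changes the cause was not tested.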
